A study of Mus musculus with 24 samples.

Results

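The comparison concerned naive B cells that lack SpiB and in which Spi1 was targeted, against control naive B cells, as 4 of the 24 RNA-seq libraries of the series. The members were chosen by their titles: PU.1 SpiB DKO replicates 1 and 2 and Control replicates 1 and 2, all naive, with every gene at 0.5 CPM or more in at least 2 of the 8 naive libraries described. PU.1 and SpiB are ETS family transcription factors that bind nearly the same purine-rich DNA sites. PU.1 is needed to form both myeloid and lymphoid cells, and in mature B cells it works beside SpiB on genes of B cell receptor (BCR) signalling, so either may stand in for the other. A naive follicular B cell is a resting cell that has not met antigen, and it relies on its BCR, on survival signals through the BAFF receptor, and on MHC class II and CD40 for contact with T cells.

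All mice were C57BL/6 by their labels. Controls were Cd23T/+, which means that they carried the Cd23-Cre transgene without a floxed gene. The PU.1 SpiB DKO mice were Spi1fl/fl Cd23T/+ Spib-/-. For comparison, PU.1 cKO mice were Spi1fl/fl Cd23T/+, and SpiB KO mice were Spi1fl/fl Cd23+/+ Spib-/- and had no Cre. Per the methods of the study the mice were 6 to 20 weeks old and matched for age and sex, and lymph node cells were sorted as CD3- B220+ CD138-. Cre was expressed from a BAC transgene under regulatory sequences of Cd23, the gene listed as Fcer2a, so it is active only from the transitional B cell stage on, whereas the Spib null allele is carried by every cell of the mouse. The study states that the floxed exon of Spi1 was partly retained in naive PU.1 SpiB DKO cells, so they were not cells without PU.1. The methods call the 2 libraries of a group biological replicates and do not say how many mice each came from, so p-values measure the spread between these libraries.

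The control libraries held 15118541 and 14231188 counts on genes and the PU.1 SpiB DKO libraries 16094209 and 17594007. In this range 1 count is worth 0.0527 to 0.0711 CPM, where CPM is a count scaled to the size of its library. Replicates correlated across genes at 0.984 in control and 0.990 in PU.1 SpiB DKO, in log2(CPM + 0.5). Ribosomal Rn45s took 3.62% of the counts in control replicate 1 and 0.185% to 0.574% in the other 7 naive libraries, and control replicate 1 was also the highest library for several stress genes described below.

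The labelled cell type was borne out by its markers. Cd79a and Cd79b, the signalling chains of the BCR, stood at 2876 and 2899 CPM and at 2697 and 2693 CPM in control, and at 2692 and 2342 CPM and 2284 and 2030 CPM in PU.1 SpiB DKO. Neither gene was called, with log2 fold changes of -0.20 and -0.32. In bulk RNA, fewer cells of a type and less RNA per cell cannot be told apart, which holds for every level given here.

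Against control, 2652 of the 12500 genes tested were called, which is 21.2% of them. A gene was called when edgeR's quasi-likelihood test gave a Benjamini-Hochberg adjusted p under 0.15 and the fold change was over 1.5. Of these, 1572 were higher in PU.1 SpiB DKO (12.6% of the genes tested) and 1080 were lower (8.64%). The rises were larger and often in genes at low levels. Their median log2 fold change was 1.56, 601 of them passed 2 on that scale, and in 220 both control libraries held at most 3 counts. The falls had a median of -0.86, with 81 beyond -2. Of the genes that rose, 928 reached a mean of 5 CPM in PU.1 SpiB DKO, and of the genes that fell, 932 had a mean of 5 CPM or more in control. Over all genes tested the median log2 fold change was 0.0022. Limma-voom with quantile normalization divided a similar number of calls, 2591, into 1219 higher and 1372 lower. Without PU.1 SpiB DKO replicate 1 the count was 1756, and the genes that fell numbered 1699 without control replicate 1, 650 without control replicate 2 and 602 without PU.1 SpiB DKO replicate 1.

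**Figure D1:**
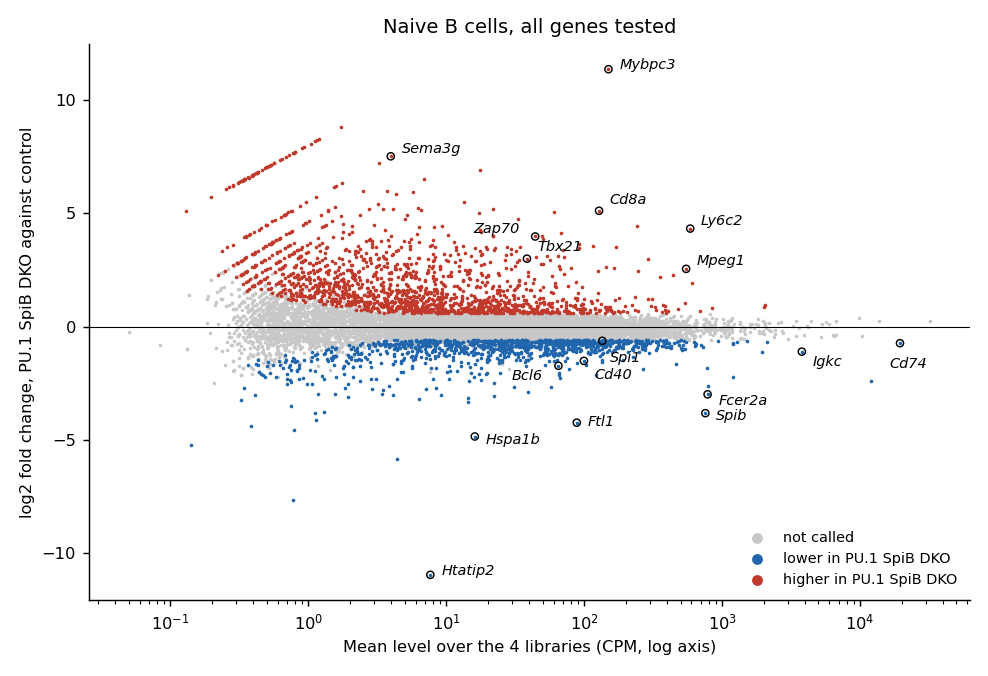
Mean level over the 4 libraries (CPM, log axis) against the log2 fold change between PU.1 SpiB DKO and control for the 12500 genes tested, 1 point a gene, coloured by the call. Rises reach further than falls and crowd at low levels, whereas abundant genes such as Cd74 and Igkc lie mostly near or below 0.

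The targeted genes were read first. Spi1, which encodes PU.1 (chromosome 2, 91082374 to 91115759, GRCm38), stood at 155 and 174 CPM in control, against 103 and 110 CPM in the PU.1 SpiB DKO libraries. The groups did not overlap, and the log2 fold change was -0.63 (SE 0.11, adjusted p = 0.00371). That lies just past the fold threshold, and Spi1 was not called with voom (-0.54), without control replicate 2 (-0.54) or without PU.1 SpiB DKO replicate 1 (-0.57). PU.1 cKO, with the same floxed allele and Cre, stood lower at 59.5 and 53.2 CPM, a called difference of 0.92, and SpiB KO at 163 CPM in both libraries. Counts were made per gene, so the floxed exon could not be separated from the rest of the transcript. Spib (chromosome 7, 44525995 to 44532087) fell from 1472 and 1354 CPM to 98.8 and 100.3 CPM, a log2 fold change of -3.83 (SE 0.13, adjusted p = 4.71e-07), and in SpiB KO it stood at 85.6 and 80.2 CPM.

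Fcer2a (chromosome 8, 3680280 to 3694174), which encodes the low-affinity IgE receptor CD23 of follicular B cells, fell from 1317 and 1474 CPM to 153 and 197 CPM. Its log2 fold change of -2.99 (SE 0.15, adjusted p = 7.11e-06) stood beside a loss of CPM that, among called genes with separate groups, was exceeded by Cd74, Igkc, Faim3 and Spib. PU.1 SpiB DKO was also lower than PU.1 cKO by 2.27 and than SpiB KO by 1.36 on the log2 scale, both called. Its 3′ end overlaps that of Trappc5, and reads there cannot be told apart without strand. Regulatory sequences of Fcer2a drive the Cre transgene, and SpiB KO mice do not carry it, so transgene and genotype cannot be told apart in that last comparison. Tnfrsf13c, which encodes the BAFF receptor, fell from 520.5 and 584 CPM to 272 and 313 CPM, by -0.92 (SE 0.12, adjusted p = 0.000824).

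**Figure D2:**
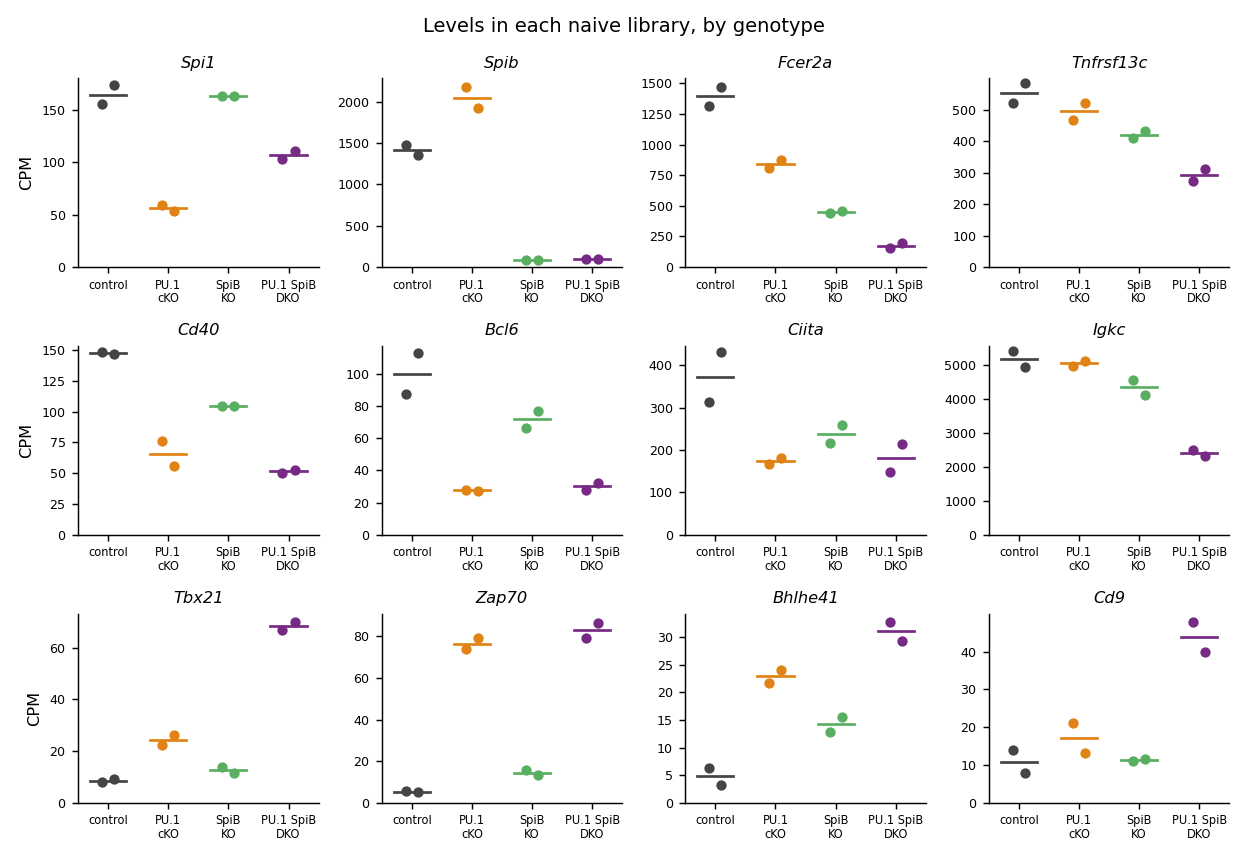
Levels (CPM, linear axes from 0) of 12 genes in each of the 8 naive libraries, with a point a library and a bar at the mean of the 2 libraries of a genotype. Fcer2a, Tnfrsf13c and Igkc are lowest, and Tbx21 and Cd9 highest, in both PU.1 SpiB DKO libraries, while Bcl6 and Zap70 lie close to PU.1 cKO.

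BCR signalling was described with the 19 genes that the study drew for this pathway. The study chose them on CD40L + IL-4 cultures of the same genotypes in this series, so their direction is not independent evidence. All 19 had a log2 fold change below 0, 10 were called lower and none higher (52.6%, against 21.2% of all genes), and the median was -0.71. The number called was 7 to 15 with 1 library left out, and the median was -0.44 without control replicate 2. Rasgrp3, a Ras activator downstream of the BCR, stood at 186 and 248 CPM in control and 76.6 and 122 CPM in PU.1 SpiB DKO (-1.13, SE 0.21, adjusted p = 0.00561). Ikbkb, a kinase that activates NF-kB, went from 80.7 and 105 CPM to 40.7 and 52.4 CPM (-0.99, SE 0.19, adjusted p = 0.00613). Pik3cg, a catalytic subunit of PI3 kinase, went from 205 and 239 CPM to 108 and 132 CPM (-0.88, SE 0.13, adjusted p = 0.00152). In each of these the groups did not overlap. Btk (-0.73), Pik3ap1 (-0.73), Inpp5d (-0.71), Dapp1 (-0.71) and Pirb (-0.88) were also called, and their groups did not overlap. Without PU.1 SpiB DKO replicate 1, Pik3ap1 (-0.57) and Inpp5d (-0.50) were not called, nor was Inpp5d without control replicate 2 (-0.58). The proximal kinases Lyn and Syk, at -0.44 (adjusted p = 0.0782) and -0.36 (adjusted p = 0.282), and the adaptor Blnk, at -0.08 (adjusted p = 0.685), were not. Against PU.1 cKO the same list had a median of -0.01, with 1 gene called higher (Pirb) and 1 lower, and against SpiB KO a median of -0.29 with none called.

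Rasgrp3, Pik3cg and Pirb each carry a sequence near their start that matches the site of PU.1 and SpiB. The promoters below are RefSeq windows of GRCm38.p6, from 250 bases before to 50 bases after a transcription start, written 5′ to 3′ on the gene's strand. They were searched on both strands for GAGGAAGT, a full PU.1 site that holds the ETS core GGAA, and for GGAA followed after any 2 bases by GAAA, the composite site of PU.1 with an IRF factor. Genes were searched for these matches only if they were among the 151 named by rule. Of those, 111 have a window, 48 that fell and 62 that rose among them, so the matches are no survey of the called genes. Of the 32851 windows in the table, 3.2% hold the first and 2.72% the second, and 96.0% hold GGAA. Only 75.7% of the genes tested, and 68.6% of those that fell, have a window, so a comparison of shares between the genes that rose and fell is void and is not given. Capitals mark the match, and ACTTCCTC is GAGGAAGT on the opposite strand. Distances are those of the first base of a match as written, so the match of Pik3cg runs across the start. Rasgrp3, Pik3cg and Pirb are shown because they are BCR signalling genes that fell, Bcl6 as a transcription factor that fell, and Ly6c2 as a gene that rose and matches 2 times.
Rasgrp3, chr17:75435655-75435954, plus strand, match 50 bases before the start: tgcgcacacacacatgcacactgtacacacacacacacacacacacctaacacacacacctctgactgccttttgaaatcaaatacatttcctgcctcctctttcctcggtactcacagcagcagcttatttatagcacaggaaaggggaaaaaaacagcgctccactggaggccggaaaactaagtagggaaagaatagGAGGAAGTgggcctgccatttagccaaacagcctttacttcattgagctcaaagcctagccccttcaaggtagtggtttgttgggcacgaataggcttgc
Pik3cg, chr12:32208610-32208909, minus strand, match 2 bases before the start: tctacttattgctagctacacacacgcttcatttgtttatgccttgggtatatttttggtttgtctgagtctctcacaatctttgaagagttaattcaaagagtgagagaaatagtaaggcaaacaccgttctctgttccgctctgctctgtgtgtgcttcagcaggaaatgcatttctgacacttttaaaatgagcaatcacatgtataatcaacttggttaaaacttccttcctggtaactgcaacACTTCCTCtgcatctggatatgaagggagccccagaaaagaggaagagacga
Pirb, chr7:3720333-3720632, minus strand, match 120 bases before the start: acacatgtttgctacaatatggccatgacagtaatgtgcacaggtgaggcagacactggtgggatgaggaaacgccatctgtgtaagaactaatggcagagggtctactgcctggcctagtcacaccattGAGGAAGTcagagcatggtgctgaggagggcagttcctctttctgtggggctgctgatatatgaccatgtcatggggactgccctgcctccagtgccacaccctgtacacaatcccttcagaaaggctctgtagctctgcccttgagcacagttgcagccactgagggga
Bcl6, chr16:23981234-23981533, minus strand, composite match 28 bases before the start: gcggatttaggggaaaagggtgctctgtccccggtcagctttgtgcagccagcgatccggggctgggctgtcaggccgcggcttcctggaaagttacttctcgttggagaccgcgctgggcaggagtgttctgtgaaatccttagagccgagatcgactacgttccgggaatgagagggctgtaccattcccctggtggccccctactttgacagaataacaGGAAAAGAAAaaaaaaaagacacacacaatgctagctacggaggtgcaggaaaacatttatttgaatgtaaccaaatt
Ly6c2, chr15:75111922-75112221, minus strand, matches 108 bases before and 26 bases after the start: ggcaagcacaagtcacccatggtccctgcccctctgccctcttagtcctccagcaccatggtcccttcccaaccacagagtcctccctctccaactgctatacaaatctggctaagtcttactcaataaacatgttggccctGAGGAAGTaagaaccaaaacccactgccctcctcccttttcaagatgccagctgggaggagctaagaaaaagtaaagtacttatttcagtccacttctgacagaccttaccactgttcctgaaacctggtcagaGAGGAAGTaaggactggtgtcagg
GAGGAAGT was also found in windows of Pira2, Bcl2a1d and Cd37, which fell, and of Cd5 and Cxcr3, which rose. Without PU.1 SpiB DKO replicate 2 the calls of Bcl2a1d (-0.82) and Cd37 (-0.52) were lost. The composite motif was also found in windows of Pou2f2, which fell, and of Cd8a, Cd68, Ifi44 and Pdcd1, which rose, the last not called without control replicate 2 (1.58) or PU.1 SpiB DKO replicate 2 (1.83). A match describes the letters only, and binding was not measured here.

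The chains of the BCR and its co-receptors changed less as a list. Of 18 genes tested 3 were called lower and 1 higher (22.2%), near the 21.2% of all genes. Igkc, the constant region of the kappa light chain, fell from 5399 and 4947 CPM to 2487 and 2313 CPM, by -1.11 (SE 0.12, adjusted p = 0.000273). Siglecg, an inhibitory lectin of B cells, fell from 157 and 190 CPM to 84.2 and 83.1 CPM (-1.05, SE 0.12, adjusted p = 0.000348). Ms4a1, which encodes CD20, went from 2785 and 2424 CPM to 1723 and 1541 CPM (-0.67, SE 0.12, adjusted p = 0.00437), and was not called without control replicate 1 (-0.58). Cd5, an inhibitory co-receptor of B-1 and T cells, stood at 1.75 and 0.995 CPM and rose to 4.24 and 3.11 CPM (1.41, SE 0.39, adjusted p = 0.0317), a call lost without control replicate 2 (1.06) or without PU.1 SpiB DKO replicate 1 (1.17). The heavy chain genes Ighm and Ighd had log2 fold changes of -0.36 (adjusted p = 0.0511) and -0.25 (adjusted p = 0.238), and the lambda constant regions Iglc1 and Iglc2 of 0.45 (adjusted p = 0.0918) and 0.45 (adjusted p = 0.0888).

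Receptors of the TNF family and costimulatory ligands went in both directions. Of 13 genes tested 5 were called lower and 3 higher (61.5%, against 21.2% of all genes). Cd40, the receptor through which T cells drive B cell activation, fell from 148 and 147 CPM to 50.5 and 52.6 CPM, by -1.52 (SE 0.14, adjusted p = 0.000131). Cd200, an immunoregulatory surface protein, fell from 98.9 and 85.3 CPM to 35.6 and 40.5 CPM (-1.27, SE 0.14, adjusted p = 0.000363). Icosl (-0.94) and Cd86 (-0.83), ligands for costimulation of T cells, fell as well. The other direction was taken by genes at low levels in control. Tnfrsf1a, a TNF receptor, rose from 3.01 and 1.28 CPM to 14.7 and 12.9 CPM (2.68, SE 0.36, adjusted p = 0.000927), and Ltbr, the lymphotoxin receptor, from 0.70 and 0.213 CPM to 1.84 and 2.11 CPM (2.09, SE 0.51, adjusted p = 0.0196, and 3.16 without control replicate 1). Cd40 and Cd200 were lower than in SpiB KO too (-1.02 and -0.77, both called), while Tnfrsf1a and Ltbr were not called against it (0.11 and -0.53).

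Among 20 transcription factors of the B lineage, 8 were called lower and 3 higher (55%, against 21.2% of all genes), and the median was -0.46, or -0.23 without control replicate 2. Bcl6, a repressor required for germinal centre B cells, fell from 87.4 and 113 CPM to 28.0 and 32.2 CPM, by -1.73 (SE 0.16, adjusted p = 0.000105). Mef2c, which acts in BCR-driven activation, fell from 702 and 730 CPM to 347.5 and 384 CPM (-0.97, SE 0.11, adjusted p = 0.000409). Both stood near their levels in PU.1 cKO, where Bcl6 had 27.9 and 27.3 CPM, and both were lower than in SpiB KO by a called difference (-1.25 and -0.71). Ikzf3 (-0.85), Zfp318 (-0.73), Bcl11a (-0.72), Bach2 (-0.71) and Foxp1 (-0.66) fell in PU.1 SpiB DKO. Without control replicate 2 the last 4 were -0.34, -0.48, -0.54 and -0.28 and not called, and without PU.1 SpiB DKO replicate 1 Zfp318 (-0.64), Bach2 (-0.55) and Foxp1 (-0.47) were not called. Pou2f2, which encodes Oct-2, went from 38.2 and 98.4 CPM to 19.4 and 35 CPM (-1.32, SE 0.40, adjusted p = 0.047). The control replicates of Pou2f2 differ by more than the lower of them differs from the PU.1 SpiB DKO libraries, and without control replicate 2 the change was -0.48 and not called, nor was it without PU.1 SpiB DKO replicate 1 (-0.96). Id2, an inhibitor of E proteins, rose from 14.5 and 9.88 CPM to 40.3 and 33.9 CPM (1.6, SE 0.21, adjusted p = 0.000806). Irf8 and Tcf4 rose by 0.84 and 0.88, and both are also used by plasmacytoid dendritic cells. Pax5 (-0.50, adjusted p = 0.169) and Ebf1 (-0.37, adjusted p = 0.221), which hold B cell identity, were not called. Other ETS factors gave 3 falls and no rise among 15 tested (20%), where 21.2% of all genes were called and 8.64% were called lower. These were Erf at -0.86, Etv3 at -0.72 and Fli1 at -0.63. Fli1 was not called without PU.1 SpiB DKO replicate 1 (-0.34) or control replicate 2 (-0.40), nor Etv3 without control replicate 2 (-0.53), and Fli1 was -1.02 without PU.1 SpiB DKO replicate 2. Ets1, the most abundant of them, went from 1536 and 1694 CPM to 960 and 1235 CPM, short of the fold threshold at -0.56 (SE 0.15, adjusted p = 0.03).

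Antigen presentation by MHC class II was lower in most members by less than the fold threshold. Of 13 genes 4 were called lower and none higher (30.8%, against 21.2% of all genes), 12 had a log2 fold change below 0, and the median was -0.46. Cd74, the invariant chain that escorts class II molecules, fell by more CPM than any other gene with separate groups, from 22124 and 26579 CPM to 14966 and 14293 CPM (-0.74, SE 0.13, adjusted p = 0.0041). With voom it was -0.38 and not called. Ciita, the master regulator of class II genes, fell from 312 and 431 CPM to 148 and 214 CPM (-1.04, SE 0.20, adjusted p = 0.00608). H2-Ob and H2-DMb2, which control peptide loading, fell by 0.76 and 0.70 on the log2 scale. The class II chains H2-Aa (-0.42, adjusted p = 0.071) and H2-Ab1 (-0.39, adjusted p = 0.052) were not called. Against PU.1 cKO the median was 0.05, with no gene lower and 1 higher. MHC class I genes gave 1 rise and 1 fall among 20 tested (10%, against 21.2% of all genes), both in genes under 8 CPM in control: H2-Q10 rose from 1.05 and 1.07 CPM to 3.20 and 2.53 CPM, and H2-K2 fell from 6.16 and 7.39 CPM to 3.69 and 3.90 CPM. In PU.1 cKO these genes stood at 132 and 145 CPM and at 198 and 205 CPM, so the PU.1 cKO libraries stood apart from the other 6 at some H2 genes, under the same strain label. The same held for H2-Q1, H2-Q2, H2-Q4 and H2-Q6, whereas H2-K1, H2-D1, H2-T22 and H2-T23 differed between PU.1 cKO and control by -0.20 to 0.07 on the log2 scale, none called.

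Homing receptors and integrins moved both ways, with 6 of 21 genes called higher and 6 lower (57.1%, against 21.2% of all genes). Cxcr4, which retains lymphocytes in bone marrow and in germinal centre dark zones, fell from 404 and 430 CPM to 144 and 87.3 CPM, by -1.85 (SE 0.35, adjusted p = 0.00562). Cxcr5 (-0.72) and Ccr7 (-0.74), which guide B cells into follicles and T cell zones, fell, as did Gpr183 (-0.79), Itga4 (-0.83) and the cannabinoid receptor gene Cnr2 (-0.60). Cxcr5 was not called without control replicate 2 (-0.53), nor Gpr183 without PU.1 SpiB DKO replicate 2 (-0.56). Itgax, which encodes CD11c, rose from 19.1 and 8.67 CPM to 70.3 and 59.6 CPM (2.22, SE 0.33, adjusted p = 0.00147), and Cxcr3 from 9.17 and 7.68 CPM to 31.2 and 28.2 CPM (1.82, SE 0.19, adjusted p = 0.000232). Cd44 (1.18), S1pr3 (1.15) and Itgb1 (0.98) rose too, beside Ccr9, which is given with the dendritic cell markers. Between SpiB KO and control, Itgax differed by 1.725, Cxcr3 by 1.694, S1pr3 by 1.173, Cd44 by 0.813 and Itgb1 by 0.425. Against SpiB KO none of the 21 was called higher and 3 were called lower, where 3.05% of all genes were called. Against PU.1 cKO 9 were called higher and 1 lower, where 12.9% of all genes were called.

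Genes that mark marginal zone and B-1 cells, the innate-like B cells, were called higher in 12 of 17 cases and lower in 1 (76.5%, against 21.2% of all genes), with a median of 1.13. The list shares Cd5, Cd80, Mzb1, Plac8 and S1pr3 with other lists used here. Bhlhe41, a repressor that maintains B-1a cells, rose from 6.3 and 3.2 CPM to 32.8 and 29.4 CPM, by 2.71 (SE 0.27, adjusted p = 0.000167). Cd9, a tetraspanin of these subsets, rose from 13.9 and 7.82 CPM to 48.0 and 39.8 CPM (2.01, SE 0.28, adjusted p = 0.00123). Zbtb32 went from 0.49 and 0.924 CPM to 4.61 and 3.11 CPM (2.43, SE 0.54, adjusted p = 0.0122), and Asb2 from 0.63 and 0.355 CPM to 2.34 and 2.90 CPM (2.39, SE 0.46, adjusted p = 0.0062). Dtx1 (1.26), a regulator of Notch signalling, and Myof (1.46) rose, whereas Notch2, the receptor that marginal zone B cells need, fell by 0.87 on the log2 scale, a call lost without control replicate 2 (-0.55). Cd1d1, a defining marker of marginal zone cells, was not called (0.27, adjusted p = 0.299). Against SpiB KO, 5 of the 17 were called higher and none lower, where 3.05% of all genes were called.

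Plasma cell genes were called higher in 9 of 17 cases and lower in 2 (64.7%, against 21.2% of all genes), with a median of 0.68, or 0.44 without control replicate 2. The falls were in Cebpb (-1.24) and Zbtb20 (-0.93), the latter not called without control replicate 2 (-0.92) or PU.1 SpiB DKO replicate 1 (-0.72). Ly6c2, a surface protein of plasma cells, monocytes and dendritic cells alike, rose from 69.0 and 42.3 CPM to 1223 and 1015 CPM, by 4.33 (SE 0.28, adjusted p = 2.32e-05). Its sequence is nearly that of Ly6c1, so counts of this pair are uncertain. Bhlha15, a factor of secretory cells, rose from 1.82 and 1.92 CPM to 14.5 and 14.1 CPM (2.93, SE 0.21, adjusted p = 3.91e-05), and Sdc1, which encodes CD138, from 17.9 and 11.2 CPM to 41.2 and 34.5 CPM (1.38, SE 0.22, adjusted p = 0.00216), although the sort left out cells with CD138 on their surface. Prdm1, the regulator that commits cells to this fate, stood at 0.98 and 1.56 CPM and at 2.89 and 2.16 CPM, a rise just inside the threshold (0.98, SE 0.44, adjusted p = 0.146) that was lost with any 1 of the 4 libraries left out. Xbp1 (0.20), Irf4 (-0.16) and the joining chain gene Igj (0.71, adjusted p = 0.426) were not called. Against SpiB KO none of the 17 was called.

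Markers of other cell types moved with the genotype. Plasmacytoid dendritic cells (pDCs), which make type I interferon, carry B220 and lack CD3, so these sort markers do not separate them from B cells. The methods also describe negative selection of naive lymph node B cells with a kit. Of 14 pDC markers 12 were called higher and none lower (85.7%, against 12.6% of all genes), with a median of 2.76. Their summed level was 1057 and 757 CPM in control, 757 and 635 CPM in the PU.1 cKO libraries, 3047 and 2515 CPM in those of SpiB KO and 3397 and 2987 CPM in the PU.1 SpiB DKO libraries. The high libraries were thus the 4 with Spib-/-, and no library of one kind overlapped the other. Siglech, which defines these cells, stood at 57.2 and 23.9 CPM in control and 267 and 229 CPM in PU.1 SpiB DKO (2.61, SE 0.32, adjusted p = 0.00055). Cd7 rose from 29.0 and 13.1 CPM to 499.8 and 417 CPM (4.44, SE 0.34, adjusted p = 5.18e-05), and Ccr9, a gut homing receptor, from 27.0 and 8.67 CPM to 214 and 212 CPM (3.57, SE 0.38, adjusted p = 0.00024). Smim5 rose by 3.85 and Cox6a2 by 3.63 on the log2 scale. Against SpiB KO none of the 14 was called and the median was 0.23. The part of pDCs in these and the other rises against control was not tested. Nor was the proposal of the study that SpiB represses genes of other lineages within B cells.

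Among T cell markers 10 of 17 were called higher and 1 lower (64.7%, against 21.2% of all genes), with a summed level of 420 and 343 CPM in control and 909.8 and 890.5 CPM in the PU.1 SpiB DKO libraries. The list did not move as one. Subunits of the CD3 complex were near 0: Cd3d at 0.569 to 1.23 CPM and Cd3g at 0.142 to 1.12 CPM over the 4 libraries, and Cd3e, not tested, at 3 to 12 counts. Cd247, the zeta chain of CD3, was called higher (0.84 and 0.995 CPM to 3.26 and 2 CPM, 1.51, adjusted p = 0.133), a call lost without either control replicate and without PU.1 SpiB DKO replicate 1. Cd4, a co-receptor of T cells that pDCs also carry, rose from 19 and 6.75 CPM to 79 and 96.9 CPM (2.77, SE 0.36, adjusted p = 0.000751). Cd8a rose from 12.0 and 2.35 CPM to 266 and 233 CPM (5.12, SE 0.49, adjusted p = 0.000147), Cd28 from 3.29 and 2.13 CPM to 34.4 and 25.3 CPM (3.46, SE 0.27, adjusted p = 5.59e-05), and Cd8b1 from 19.5 and 6.75 CPM to 96.0 and 104 CPM (2.93, SE 0.36, adjusted p = 0.00058). None of these 3 was called against SpiB KO, where Cd8a was at 231 and 175 CPM. Zap70, the kinase of the T cell receptor, behaved otherwise. It rose from 5.39 and 5.12 CPM to 79.4 and 86.7 CPM (3.98, SE 0.15, adjusted p = 1.24e-06), and PU.1 cKO had 73.8 and 79.1 CPM, whereas SpiB KO had 15.6 and 13.4 CPM. It was higher than in SpiB KO by 2.52, a called difference.

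Natural killer cell markers were called higher in 4 of 12 cases (33.3%, against 12.6% of all genes), with a median of 0.68 that was 0.10 without PU.1 SpiB DKO replicate 1 and 1.37 without control replicate 1. Tbx21, which encodes T-bet and is also expressed by some memory and atypical B cells, rose from 7.84 and 9.24 CPM to 66.8 and 70.0 CPM, by 3.00 (SE 0.17, adjusted p = 1.03e-05). It was higher than in PU.1 cKO by 1.49 and than in SpiB KO by 2.45, both called. Prf1, which encodes perforin, rose from 14.3 and 8.96 CPM to 35.7 and 34.7 CPM (1.6, SE 0.25, adjusted p = 0.00229). Klrd1, which encodes the NK receptor CD94, rose from 12.5 and 4.9 CPM to 54.6 and 45.5 CPM (2.52, SE 0.36, adjusted p = 0.00123), whereas the NK receptor genes Ncr1 (0.31, adjusted p = 0.679) and Klrb1c (0.69, adjusted p = 0.343) were not called. Of 10 macrophage and monocyte genes tested 4 (40%, against 12.6% of all genes) were called higher, led by Cd163 (0.35 and 0.0711 CPM to 4.30 and 3.16 CPM) and Cd68 (11.3 and 5.76 CPM to 55.4 and 52.6 CPM). Csf1r, a defining marker, stayed at or under 1 CPM in the 4 libraries. None of the 10 neutrophil markers was tested, each at 3 counts or fewer in any of the 4 libraries, and no erythroid marker was called, with Hba-a2 at 2.80 and 4.05 CPM and 4.98 and 3.58 CPM. One of 3 stromal and endothelial markers rose, Cdh5, from 4.06 and 3.34 CPM to 33.3 and 49.8 CPM, which in SpiB KO stood at 34.3 and 33.9 CPM.

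**Figure D3:**
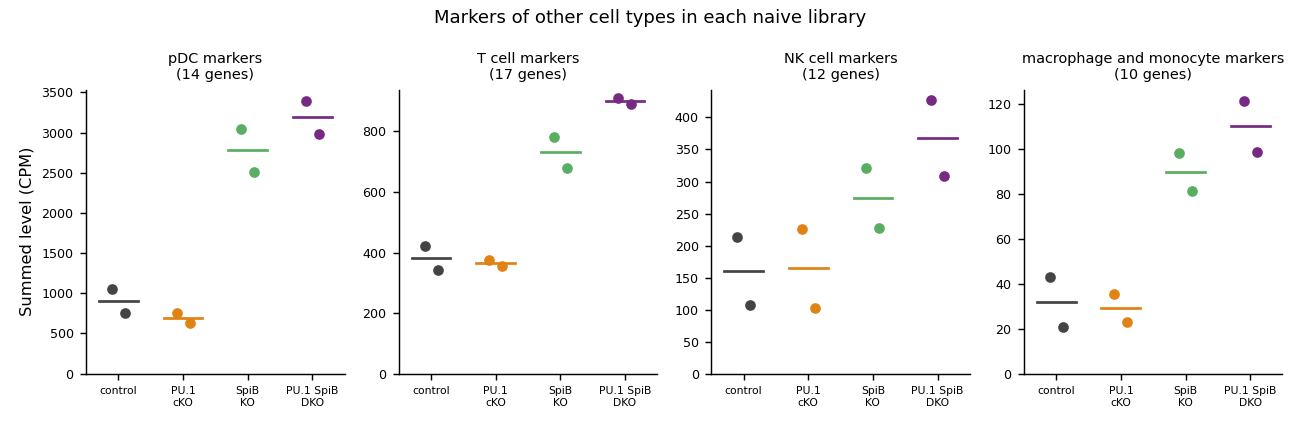
Summed level (CPM, linear axes from 0) of the tested markers of pDCs, T cells, NK cells, and macrophages and monocytes in each of the 8 naive libraries, with a point a library and a bar at the genotype mean. The pDC, T cell and macrophage sums are higher in all 4 Spib-/- libraries than in the 4 others, and for NK markers the libraries with and without Spib lie closer together.

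The immediate early genes, which respond within minutes to handling and to receptor signals, were called lower in 14 of 21 cases (66.7%, against 8.64% of all genes), with none higher and a median of -0.77. Control replicate 1 was the highest library for several of them. Fos stood at 182 and 39.2 CPM in control and 30.7 and 15.5 CPM in PU.1 SpiB DKO (-2.26, adjusted p = 0.0842), and Dusp1, a phosphatase that limits MAP kinases, at 59.0 and 16.3 CPM and at 9.04 and 4.37 CPM (-2.50, adjusted p = 0.0344). Without control replicate 1 they were -0.78 and -1.31 and not called, and Fos was not called without either PU.1 SpiB DKO replicate (-2.83 and -1.87). Without control replicate 1 these were -0.78 and -1.31 and neither was called. Of the list, 7 genes were called without control replicate 1 and 9 without PU.1 SpiB DKO replicate 2. Control replicate 1 is also the library with the high Rn45s share, and the part of that difference in these values was not tested. Klf6 had closer replicates. It fell from 225 and 172 CPM to 74.2 and 69.6 CPM (-1.47, SE 0.14, adjusted p = 0.000151), and Junb from 405 and 240.4 CPM to 132 and 119.9 CPM (-1.36, SE 0.21, adjusted p = 0.00201). Heat shock genes showed 7 falls among 19 (36.8%, against 21.2% of all genes) and a median of -0.17, or -0.10 without control replicate 2 and -0.38 without PU.1 SpiB DKO replicate 2. Hspa1b stood at 48.7 and 13.6 CPM against 1.78 and 0.421 CPM (-4.86, SE 0.94, adjusted p = 0.00646), Hspa1a at 14.4 and 2.77 CPM against 0.307 and 0 CPM (-5.83, SE 1.33, adjusted p = 0.0142), and the reads of this near-identical pair may be split between them. The constitutive chaperone Hspa8 was steadier, falling from 344 and 355 CPM to 185 and 169 CPM (-0.98, SE 0.12, adjusted p = 0.000689).

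Interferon-stimulated genes had 10 falls and 4 rises among 29 (48.3%, against 21.2% of all genes) and a median of -0.71, which ran from -1.06 without control replicate 1 to -0.34 without control replicate 2. Oas1a, an antiviral enzyme gene, was at 20.7 and 31.4 CPM in control and at 4.24 and 6.74 CPM in PU.1 SpiB DKO (-2.24, SE 0.31, adjusted p = 0.00103). Oas3 went from 52.4 and 84.8 CPM to 5.66 and 12.7 CPM (-2.89, SE 0.59, adjusted p = 0.00866) and Oas2 from 4.06 and 10.7 CPM to 0.676 and 1.11 CPM (-3.02, SE 0.61, adjusted p = 0.00831). Replicates of one genotype differed widely here, as with Ifit1 at 6.86 and 19.8 CPM in control, 12.8 and 4.86 CPM in the PU.1 cKO libraries and 1.72 and 13.6 CPM in those of SpiB KO. Its fall was not called without control replicate 2 (-1.38) or PU.1 SpiB DKO replicate 1 (-1.77). The list held 14 calls, but 6 without PU.1 SpiB DKO replicate 1, 8 without control replicate 2 and 21 without control replicate 1. Bst2 (2.17), Ifi44 (2.25), Ly6a (0.70) and Ifi204 (1.84) rose, and Bst2 is also counted among the pDC markers. Ifi204 was not called without control replicate 1 (1.18) or either PU.1 SpiB DKO replicate (2.18 and 1.35), and was 3.05 without control replicate 2.

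Regulators of survival in the BCL2 family gave 5 falls and 2 rises among 14 (50%, against 21.2% of all genes). Pmaip1 and Bmf, both promoters of apoptosis, fell from 23.3 and 25.3 CPM to 5.23 and 6.64 CPM (-2.03, SE 0.20, adjusted p = 0.000184) and from 86.3 and 86.0 CPM to 28.2 and 41.8 CPM (-1.30, SE 0.19, adjusted p = 0.00165). Bcl2, which protects cells, fell by 0.67 and was not called without control replicate 2 (-0.44) or PU.1 SpiB DKO replicate 1 (-0.47). Bbc3, which encodes the pro-apoptotic protein PUMA, rose from 3.78 and 3.91 CPM to 9.41 and 10.1 CPM (1.34, SE 0.21, adjusted p = 0.00204). Bim, encoded by Bcl2l11, and Mcl1 were not called (0.45 and -0.36).

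Of 28 cell cycle genes 5 were called higher and none lower (17.9%). Over all genes 12.6% were called higher and 21.2% were called in either direction. Tyms, a thymidylate synthase, rose from 1.33 and 1.99 CPM to 8.05 and 4.16 CPM (1.87), and Ccne1, a cyclin of the G1 to S transition, from 4.90 and 6.82 CPM to 12.1 and 11.2 CPM (0.99). Mki67, the usual mark of cycling cells, was at 0.474 to 1.71 CPM in the 4 libraries. Inhibitory and paired receptors gave 5 rises and 4 falls among 16 (56.2%, against 21.2% of all genes). Lair1, a collagen receptor, rose from 21.5 and 8.53 CPM to 167 and 169 CPM (3.48, SE 0.31, adjusted p = 0.000109), with 122 and 130.1 CPM in SpiB KO. Pira2 fell from 3.29 and 3.06 CPM to 0.553 and 0.421 CPM (-2.69, SE 0.41, adjusted p = 0.00194), and with Pirb it belongs to a family whose members share reads. Toll-like receptors and their partners gave 1 rise (Ly96) and 1 fall (Tlr3) among 12 (16.7%, against 21.2% of all genes). Both calls were lost without control replicate 2 or PU.1 SpiB DKO replicate 1. Of the 12, 8 had a log2 fold change below 0 and 4 above. Tlr4 (-0.55, adjusted p = 0.0125) and Tlr9 (-0.43, adjusted p = 0.0355) fell with separate groups, short of the fold threshold. Genes of ferritin and iron handling gave 2 rises and 2 falls among 11, and the GIMAP GTPases 1 fall among 8 (Gimap9, -0.62, not called without PU.1 SpiB DKO replicate 2). Their called shares were 36.4% and 12.5%, against 21.2% of all genes.

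**Figure D4:**
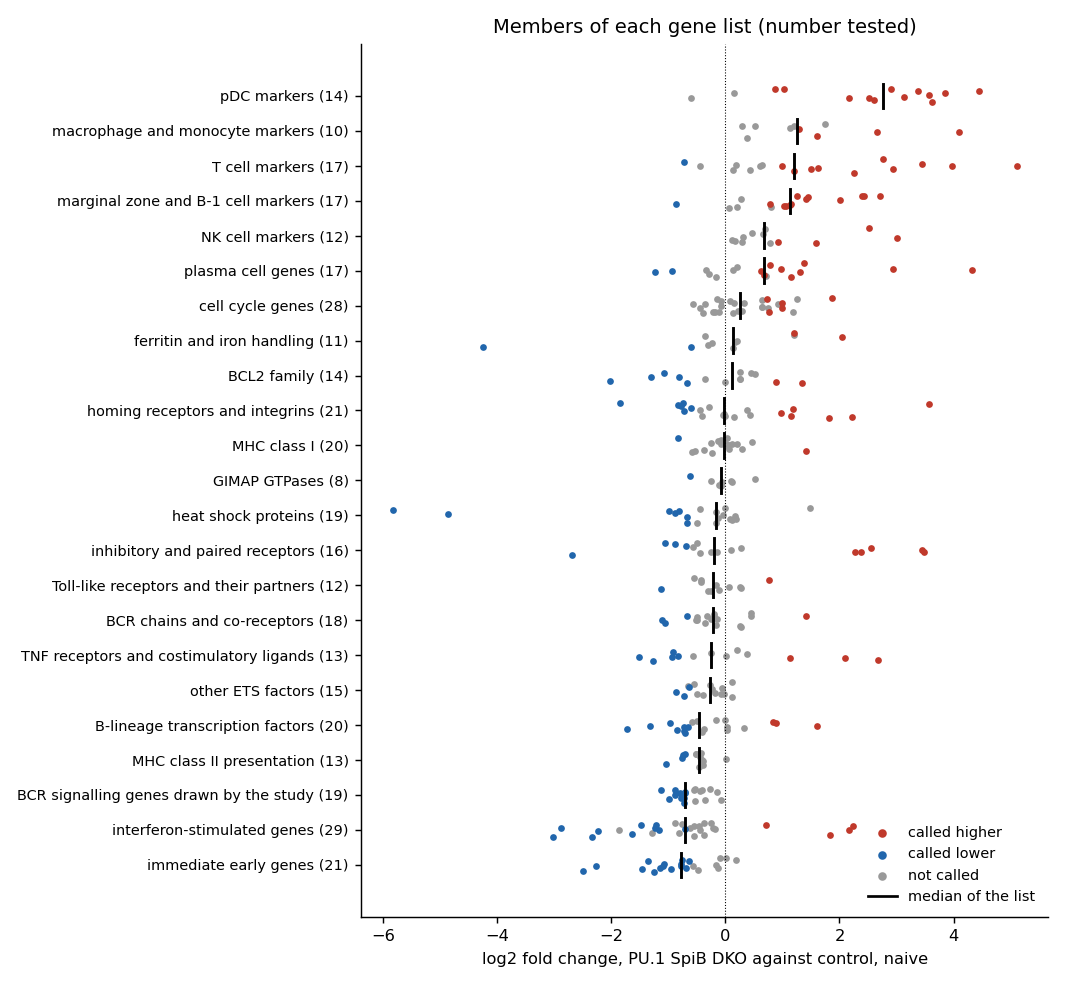
Log2 fold change between PU.1 SpiB DKO and control for each tested member of 23 gene lists with at least 5 members tested, 1 point a gene coloured by the call and a bar at the median of the list. The medians run from -0.77 for the immediate early genes to 2.76 for the pDC markers.

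The largest single rises and falls were in genes at low to middling levels. Mybpc3, a myosin-binding protein of heart muscle, held 1 and 2 counts in the control libraries and stood at 265 and 335 CPM in PU.1 SpiB DKO, a ratio of 2861 (95% exact counting interval 979 to 13877). It starts 2.36 kb from Spi1, had 390 and 382 CPM in the PU.1 cKO libraries but 0.297 and 0.647 CPM in SpiB KO, and so was high where a floxed Spi1 and Cre were both present. Gdpd3, a lysophospholipase, rose from 0.42 and 0.142 CPM to 25.7 and 43.7 CPM (6.91, SE 0.40, adjusted p = 1.28e-05), yet stood higher still in PU.1 cKO at 147 and 141 CPM. Sema3g, a secreted semaphorin, was at 0 and 0.0711 CPM in control and 7.93 and 7.85 CPM in PU.1 SpiB DKO, a ratio of 224 (39.8 to 8862). Tmem119, Adamtsl2, Il34 and Mras, with 0 to 3 counts in each control library, rose by ratios of 184 (32.7 to 7305), 97.3 (37.8 to 359), 68.9 (23.3 to 336) and 61.1 (23.6 to 226). Lrrc15, Cadm1 and Gm20746 rose by 5.95, 5.53 and 5.22 on the log2 scale. None of these 7 genes was called between PU.1 SpiB DKO and SpiB KO. Chl1, at 2 counts in each control library, rose by a ratio of 45.6 (17.6 to 169) and Itga9 by 5.22 on the log2 scale, and both were called higher than every other genotype. By absolute level the rises were led by Psap, prosaposin of the lysosome (1482 and 1295 CPM to 2884 and 2554 CPM), Gm11478 (1503 and 1334 CPM to 2884 and 2336 CPM), Ly6c2, Mpeg1, a pore-forming protein of phagocytes (207 and 113 CPM to 927 and 948 CPM), and the lysosomal protease Ctsb (289 and 211 CPM to 993 and 926 CPM).

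Htatip2 had no count in either PU.1 SpiB DKO library and stood at 16 and 14.7 CPM in control, which makes it at least 89.6-fold lower against a floor of 3 counts per library. Ftl1, the ferritin light chain, fell from 171 and 164 CPM to 14.3 and 3.63 CPM (-4.25, SE 0.43, adjusted p = 0.000208). It lies 0.926 Mb from Spib, and stood at 4.82 and 4.91 CPM in SpiB KO and 189 and 186 CPM in PU.1 cKO. Nxpe2 fell from 35.6 and 43.7 CPM to 4.18 and 5.11 CPM (-3.09), the adhesion molecule L1cam from 10.6 and 21.8 CPM to 2.46 and 1.53 CPM (-3.03), and Wfdc17 from 7.42 and 4.69 CPM to 1.11 and 0.632 CPM (-2.81). In PU.1 cKO Nxpe2 stood at 5.22 and 3.35 CPM and L1cam at 3.12 and 2.02 CPM, neither called against PU.1 SpiB DKO. L1cam was not called against SpiB KO either, whereas Nxpe2 was (-1.73). Hip1, an endocytic adaptor, fell from 11.3 and 18 CPM to 2.09 and 2.37 CPM (-2.71). Among abundant genes Faim3, the receptor for IgM, fell from 2529 and 2777 CPM to 1230 and 1200 CPM (-1.13, SE 0.11, adjusted p = 0.000174), a level close to that in PU.1 cKO.

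The targeted alleles were read with their neighbours. Of 67 genes tested within 1 Mb of Spib, 19 were called higher and 11 lower, or 44.8%, against 21.2% of all genes. Within 5 Mb it was 39 of 107 (36.4%). The same windows around Spi1 gave 4 of 28 (14.3%) and 6 of 45 (13.3%), and around Fcer2a 3 of 27 (11.1%) and 3 of 31 (9.68%). Beside Spib, Pold1, a DNA polymerase subunit 0.657 kb away, fell from 194 and 208 CPM to 67.3 and 69.4 CPM (-1.56, SE 0.10), and Mybpc2, 1.28 kb away, rose from 2.45 and 2.63 CPM to 36.6 and 45.6 CPM (4.01, SE 0.22). Both stood alike in SpiB KO, Pold1 at 81.5 and 75.6 CPM and Mybpc2 at 23.5 and 30.7 CPM, and neither was called between the 2 genotypes. Klk1, also counted among the pDC markers, and its relatives Klk1b3 and Klk1b27 rose by 3.14, 3.92 and 2.47 on the log2 scale, Klk1b24 by a ratio of 28.1 (7.51 to 237), and reads of these kallikreins may be shared among them. Rcn3 (-2.96) and Tead2 (-2.78) fell. None of the 30 genes called within 1 Mb of Spib was called between PU.1 SpiB DKO and SpiB KO. Only 3.05% of all genes were called there, a share at which few of 30 would be. When PU.1 SpiB DKO was set against PU.1 cKO, 24 of the 30 were called, where 12.9% of all genes were. The 30 had been picked by their call against control, which used the same PU.1 SpiB DKO libraries.

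Against the single mutants the counts were smaller. PU.1 SpiB DKO differed from PU.1 cKO in 1614 genes (12.9%), of which 1239 were higher (9.91%) and 375 lower (3.00%). From SpiB KO it differed in 381 genes (3.05%), 213 higher (1.70%) and 168 lower (1.34%). With replicate number fitted as a block the last count was 604, and it was 204 and 193 without PU.1 SpiB DKO replicate 1 and 2. All 3 comparisons share the same PU.1 SpiB DKO libraries, and SpiB KO carries no Cre.

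Called the same way against control, PU.1 cKO and SpiB KO alike were 175 genes (1.40%), 84 higher and 91 lower. This number was 101 and 86 without PU.1 SpiB DKO replicate 1 and 2, and 264 with replicate number fitted as a block. Of the 84, 60 reached 5 CPM in PU.1 SpiB DKO, with means of 68.4 CPM for Tbx21 against 8.54 in control, 24.3 for the PU.1 cKO and 12.6 for the SpiB KO, and of 43.9 CPM for Cd9 against 10.9, 17.1 and 11.2. Id2, Prf1, Bbc3, Itga9, Asb2 and Sema3g were among them. The largest fitted changes beside that of Sema3g belong to Kcne1, Acacb, Grm4, Rasl11a and Pitpnm3, all without a count in either control library and at 0.615 to 2.71 CPM in PU.1 SpiB DKO, at least 4.56-fold to 10.6-fold higher against the floor. Lower than every other genotype were Fcer2a, Igkc, Pmaip1, Hip1, Hspa1b and Hsph1, and, at 1 count or fewer in each PU.1 SpiB DKO library, Igkv8-26 and BC049352. Hsph1 was not called against control without PU.1 SpiB DKO replicate 1 (-0.71).

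Of the 91 genes lower than in every other genotype, 61 were segments or constant regions of the kappa light chain locus. This family was singled out after the values were seen. Of 100 Igkv segments tested 78 were called lower and 1 higher than control, with a median of -1.13, and 57 were lower than SpiB KO, where 1.34% of all genes were. Their summed level was 4326 and 3524 CPM in control, 3864 and 3842 CPM in the PU.1 cKO libraries, 3474 and 3009 CPM in those of SpiB KO and 1905 and 1653 CPM in PU.1 SpiB DKO, so that both PU.1 SpiB DKO libraries lay below all 6 others. The 5 Igkj segments tested were all lower than control, with log2 fold changes of -1.2 to -1.0. Igkv14-100 fell from 59.0 and 47.6 CPM to 9.22 and 7.37 CPM (-2.69, SE 0.18, adjusted p = 2.78e-05). The lambda segments did not follow. The 3 Iglv segments tested gave 1 rise and no fall, with a sum of 494 and 369 CPM in control and 641 and 557 CPM in PU.1 SpiB DKO. Of 94 Ighv segments of the heavy chain 14 were called, 12 lower and 2 higher, where 21.2% of all genes were called. Their median was -0.36. With voom 35 of the Ighv segments were called lower and the median was -0.54, and without control replicate 1 the median was -0.28. Across alternative fits the Igkv falls called were 69 to 85, except with the threshold on RPKM, for which these segments have no deposited value. V segments resemble each other closely, so counts of a single segment are uncertain, which affects their sum less.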

How the data were processed

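RNA from sorted lymph node B cells was sequenced from TruSeq RNA libraries. The authors aligned reads to mm10 (GRCm38) with Subread and counted them over RefSeq exons with featureCounts, and the deposited counts are raw whole numbers per gene. The deposited log2 RPKM values, which the authors computed, served only as an alternative filter on level.

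The 8 naive libraries were fitted together in edgeR 4.0.16 under R 4.3.3 with TMM scaling and the quasi-likelihood F-test, over 12500 of 27179 listed genes with at least 0.5 CPM in 2 libraries. Levels are TMM-scaled CPM, and SE is the log2 fold change divided by the square root of F. On simulated counts with 200 genes changed by 1 on the log2 scale, for 12288 genes, 77.5% were recovered with 26 false calls. A level of 3 counts per library served as the floor where a group held none. Ratios of low counts carry 95% exact counting intervals, which cover counting error only.

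Named genes were the targeted genes, the largest changes by fold and by CPM at 5 CPM or more, leading members of each list, neighbours of the alleles and the leading genes called against all 3 genotypes. Others were named for their role after their values were seen. The comparison, members and lists were chosen with earlier results of these data known. Alternatives used DESeq2 1.42.0, limma 3.58.1 (voom, quantile normalization), RLE scaling, other filters and thresholds, a replicate block and leaving out each library. Some results are not reported here.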

Additional observations from a re-analysis of the deposited data

Results flagged for a closer look

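For 40 of the genes named by rule, the change between PU.1 SpiB DKO and control differed between naive cells and cells cultured for 48 hours in CD40L + IL-4, by an interaction term fitted in edgeR's quasi-likelihood test over 16 libraries (adjusted p under 0.05). Values are the naive log2 fold change minus that in culture. Where a group held no counts, the fitted difference depends on the prior count. No explanation was tested.

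The targeted genes and Cre-linked gene differed by 1.11 for Spi1, 1.68 for Spib and -1.21 for Fcer2a. Spi1 and Spib fell further in culture, by 1.74 and 5.51 on the log2 scale, and Fcer2a less, by 1.79.

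Genes that rose in naive cells and not in culture included Psap (2.11), Mpeg1 (3.88), Ctsb (2.67), Cd68 (4.45), Cd8a (5.84), Cdh5 (5.08), Smim5 (6.17) and Cd33 (7.82). Bhlhe41 (3.88), Cd5 (5.10), Asb2 (2.57), Bbc3 (1.75), Tyms (1.96), Slc39a14 (1.19), 1110051M20Rik (2.14), Mybpc2 (4.08), Zfp658 (3.01), Gdpd3 (12.1) and Mras (9.56) did likewise. The differences of Sema3g (6.01), Ly6c2 (3.45) and Zap70 (1.58) were of genes whose fitted change was positive in both. Il2rb (-2.81) had the larger change in culture.

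Genes whose fall was larger in culture were Faim3 (1.46), Siglecg (1.99), Pirb (2.51), Bcl2a1d (1.88) and Nxpe2 (3.25). The fall was larger in naive cells, or found in them with no fall in culture, for Igkc (-1.90), Igkv14-100 (-2.38), Dusp1 (-2.97), Klf6 (-0.82), Junb (-1.96), Ppp1r15a (-1.82), Hsph1 (-1.60), Pmaip1 (-1.47) and Bmf (-1.55). In a fit of all 24 libraries Bmf, Smim5 and Cd33 had adjusted p-values of 0.0623, 0.0595 and 0.0573 in edgeR.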

How the results depend on the processing

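The count against control was 1761 (924 of them higher) when a mean log2 RPKM above 0 was also asked for, and this threshold gave 901 genes against PU.1 cKO, 247 against SpiB KO and 69 against all 3 genotypes. With 1 library left out the count ranged from 1756 to 3371 against control, with 1154 to 1672 higher and 602 to 1699 lower, from 1234 to 1757 against PU.1 cKO, from 193 to 499 against SpiB KO and from 86 to 219 against all 3. Without a filter on low counts the last 2 counts were 615 and 264, and at adjusted p under 0.05 they were 208 and 91. The cause of these moves was not tested. Of 151 named genes, no direction reversed, 6 lost their call with DESeq2, 12 with voom, 15 at adjusted p under 0.05, 42 with a mean log2 RPKM above 0 required, and 7, 16, 18 and 9 without control replicate 1, control replicate 2, PU.1 SpiB DKO replicate 1 and replicate 2. Not every named gene was fitted each time: with 1 library left out 145 to 150 of the 151 had a value, and only those are counted. The medians of the homing, MHC class I, GIMAP, cell cycle, inhibitory receptor and erythroid lists lay near 0 and changed sign in some of the alternative fits.

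Same-numbered libraries deviated together across genes (correlations of 0.139 to 0.327), but with 2 numbers and no label that says what a number marks, the pairing is only a hint from the data. With replicate number fitted as a block 2829 genes were called against control, 1820 against PU.1 cKO, 604 against SpiB KO and 264 against all 3, and none of the 151 named genes lost its call. With 2 libraries a group, spread is poorly known for any single gene, and low counts limit genes under about 1 CPM.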
